A study of Mus musculus with 7 samples.

Results

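Costimulatory receptors and their partners on CD4 T cells were followed in lung tumours through 10 genes, out of 55364 genes in the count table. They were matched by symbol: Cd28, Icos and Ctla4 of the CD28 family, the TNF receptor family members Tnfrsf4 (OX40), Tnfrsf9 (4-1BB), Tnfrsf18 (GITR) and Cd27, the TNF family ligand Cd40lg, and the surface glycoproteins Cd2 and Cd5. All 10 were found once each, and all 10 passed the filter on low counts. The Cre group (2 libraries) came from I-AbF/F mice that carried Col1a2-cre, a recombinase driven by a collagen promoter used in fibroblasts. The Control group (5 libraries) came from I-AbF/F mice with no Cre. Mice of both groups were C57BL/6, over 8 weeks old, given tamoxifen, and bore orthotopic lung tumours; the loxP-flanked allele of an MHC class II chain was therefore present in every animal. Cells were sorted as CD45+CD3+CD4+, and RNA was counted at transcript 3′ ends.

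A naive CD4 T cell needs a signal through CD28 beside its antigen receptor, which it gets from CD80 or CD86 on an antigen-presenting cell. CTLA-4 binds the same ligands with higher affinity and restrains the response, while ICOS, OX40, 4-1BB, GITR and CD27 add signals for growth and survival after activation. CD40 ligand passes help back to the presenting cell, CD2 strengthens adhesion through CD48 in the mouse, and CD5 dampens antigen receptor signalling. Regulatory T cells in tumours are known for high CTLA-4, ICOS, OX40, 4-1BB and GITR.

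Library totals were 1929899 and 1449739 counts in Cre and 1484655 to 1724346 in Control. Levels below are CPM, the counts of a gene scaled by the library total. Cre libraries had no count for 25.0% and 33.6% of tested genes, against 1.14% to 16.1% in Control. T cell markers (10 genes) summed to 6038 and 6412 CPM in Cre and to 4417 to 5962 CPM in Control. Cd3e, which encodes an antigen receptor subunit used in the sort, had 116 and 3 counts in Cre and 146, 51, 307, 405 and 149 counts in Control. Cd4 had 731 and 567 counts in Cre and 363, 409, 738, 605 and 330 in Control. H2-Ab1, which encodes a chain of I-Ab, had 87 and 112 counts in Cre and 76 to 183 in Control; deletion in fibroblasts is not checked by RNA of sorted T cells. Fibroblast markers (8 genes) summed to 276 and 55.9 CPM in Cre and 189 to 611 CPM in Control, with Col1a2 at 7 and 2 counts in Cre and 40 to 336 in Control. Of the 6 tested, 5 had lower fitted values in Cre, where 60.1% of all tested genes did. Dcn went the other way, with 364 and 41 counts in Cre and 76, 7, 112, 115 and 257 in Control. NK cell markers (6 genes) summed to 78.2 and 146 CPM in Cre and 1.23 to 104 CPM in Control. The B cell genes Ms4a1 and Pax5 were at 0 in all 7 libraries. The CD8 genes Cd8a and Cd8b1 were at 0 in both Cre libraries and summed to at most 9.49 CPM in Control. In bulk samples, fewer cells of a type and less RNA per cell cannot be told apart.

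Every receptor was detected in all 7 libraries, and none differed between Cre and Control at an adjusted p under 0.05. In edgeR's quasi-likelihood test over 9854 genes, 0 of the 10 passed in either direction, where 0.0101% of all tested genes passed as lower and 0% as higher. At an unadjusted p under 0.05 the count in edgeR was 0 of 10, where 10.2% of all tested genes were lower and 1.41% higher. DESeq2 called 0 of 10 after adjustment, where it called 6.16% of all tested genes as lower and 0.355% as higher. At an unadjusted DESeq2 p under 0.05, 1 of 10 was lower and 0 higher, where 15.5% and 2.2% of all tested genes were. Limma voom called 0 of 10, where it called 0% as lower and 0.0304% as higher. A count in every library was found for 84.7% of the 3945 tested genes that were at least as abundant as the lowest receptor. Both Cre libraries lay below every Control library for Icos, Tnfrsf4 and Tnfrsf9, which is 3 of 10 receptors, where 10.9% of all tested genes and 9.38% of those at least as abundant did so. Both lay above for 0 of 10, where 4.05% of all tested genes and 6.01% of those at least as abundant did so. Fitted values were lower in Cre for 6 of 10, where 60.1% of all tested genes and 51.9% of those at least as abundant had the same sign. The median log2 fold change of the 10, Cre minus Control, was −0.63, beside −0.39 over all tested genes and −0.04 over those at least as abundant. Which of the first 2 medians was lower depended on the setting: without Cre replicate 1 they were −0.87 for the receptors and −2.40 for all tested genes, and without Cre replicate 2 they were −0.15 for the receptors and −1.22 for all tested genes.

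**Figure D1:**
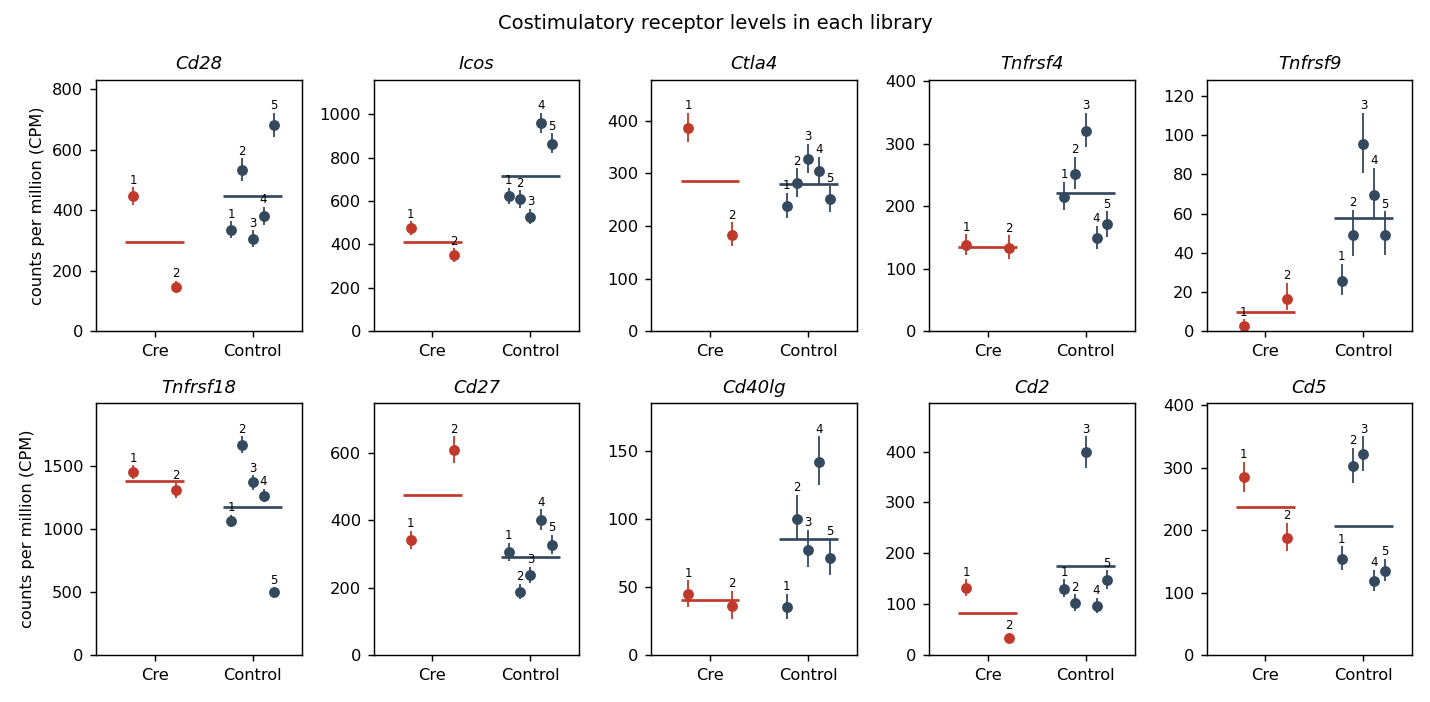
Level of each receptor in each library, in CPM; points are libraries numbered by replicate, bars through the points are exact 95% Poisson intervals for counting error, and horizontal lines are group means. Icos, Tnfrsf4 and Tnfrsf9 have both Cre libraries below all 5 Control libraries, and in Cd28, Ctla4 and Cd2 the Cre libraries lie far apart.

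Cd28 stood at 446 and 146 CPM in Cre and at 335, 533, 305, 380 and 682 CPM in Control. Cre replicate 1 fell within the Control range and Cre replicate 2 below all of it. The log2 fold change was −0.56 ± 0.50 (SE; edgeR adjusted p = 0.703), with a 95% interval of −1.65 to 0.53. Without Cre replicate 2 the estimate was 0.058, so its direction rested on that library.

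Icos, the inducible member of the family, had 474 and 350 CPM in Cre, against 621, 608, 528, 960 and 865 CPM in Control. The groups did not overlap. Means were 412 ± 87.5 CPM in Cre (SD, n = 2) and 716 ± 186 CPM in Control (SD, n = 5), a log2 fold change of −0.78 ± 0.38 (edgeR adjusted p = 0.429; interval −1.60 to 0.03). The difference did not pass the test, and its sign was negative in all 16 alternative fits.

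Ctla4, the inhibitory member, had 387 and 183 CPM in Cre and 238, 282, 327, 304 and 251 CPM in Control. The Cre libraries lay on either side of the whole Control range, and the Control libraries were the most even of the 10 receptors, with a highest value 1.37 times the lowest. The mean was 285 ± 144 CPM in Cre and 281 ± 36.7 CPM in Control, with a log2 fold change of 0.04 ± 0.42 (edgeR adjusted p = 0.982). The interval of −0.87 to 0.96 leaves room for a change of up to 1.94-fold upward and down to 0.545 of the Control level.

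Cd28, Ctla4 and Icos are neighbours on the plus strand of chromosome 1 (mm10), with 113640 bases between Cd28 and Ctla4 and 62094 bases between Ctla4 and Icos. The 3 together summed to 1307 and 680 CPM in Cre and to 1160 to 1798 CPM in Control. Within Cre replicate 1, Ctla4 was above all Control libraries while Icos was below them, so the 3 neighbours did not share 1 position.

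The counts of Cd28 and Icos each came from 2 regions, and the ends of the annotated transcripts in or next to those regions were compared. The last 30 bases of each transcript are given because a 3′-end library counts reads near such ends; capitals mark a polyadenylation signal, AATAAA or ATTAAA, searched on the sense strand. Of 47808 annotated coding transcripts 53.8% hold 1 of these in that window, and of 21848 retained-intron transcripts 19.6% do.
Cd28-201 (coding, chr1:60773330-60773359, plus strand): tagcctgcAATAAAtatttattcattgact
Cd28-203 (retained intron, chr1:60764597-60764626, plus strand): tttattacaactttattagaaagaacttgg
Icos-201 (coding, chr1:60995768-60995797, plus strand): ctgtagaatATTAAAaattatgtttgtgaa
Icos-202 (coding, chr1:61000291-61000320, plus strand): aacagccAATAAAtatgctttgtgagagaa
The coding end of Cd28 and both ends of Icos hold a signal, which starts 22, 21 and 23 bases before the end in Cd28-201, Icos-201 and Icos-202. The retained-intron end of Cd28-203 holds neither letter string. That end lies before its counted region, whose own bases were not read here, so the RNA behind those counts is not identified. Coordinates are mm10, and the sequences are those of GENCODE M21 transcripts.

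Much of the Cd28 signal lay outside the coding transcript. The region at 60764627 to 60764875, which begins right after the end of Cd28-203 and is intronic for all its 249 bases, held 763 and 103 counts in Cre and 382, 632, 246, 346 and 596 in Control. That is 88.7% and 48.6% of all Cd28 counts in Cre, and 67.7%, 79.8%, 49.6%, 52.7% and 53.7% in Control. The shares averaged 68.7% ± 28.4 in Cre and 60.7% ± 12.7 in Control, a difference within the spread between libraries (exact permutation p = 0.667, two-sided, where 0.0952 is the smallest this design allows; 0.667 adjusted over 3 receptors). The region at 60769786 to 60773608, with 3574 bases of the Cd28-201 3′ UTR, held 97 and 109 counts in Cre, against 182, 160, 250, 310 and 514 in Control.

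Counted alone, the 3′ UTR region of Cd28 had both Cre libraries below every Control library. Its level was 50.3 and 75.2 CPM in Cre, against 108, 108, 154, 180 and 316 CPM in Control. With each of 11801 tested regions as its own feature, the log2 fold change was −1.49 ± 0.64 (edgeR adjusted p = 0.407, unadjusted 0.0360), while the intronic region gave −0.25 ± 0.61 (adjusted p = 0.922). In the intronic region Cre replicate 2, at 71.0 CPM, was below every Control library, and Cre replicate 1, at 395 CPM, was within the Control range of 151 to 426 CPM. Whether the 2 regions differ in their fold change was not tested.

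In Icos the longer transcript carried most counts. The region at 60997715 to 61000569, of which 2606 bases are the 3′ UTR of Icos-202, had 316 and 289 CPM in Cre and 473, 501, 480, 889 and 692 CPM in Control. The groups did not overlap, and the log2 fold change was −1.04 ± 0.40 (edgeR adjusted p = 0.407, unadjusted 0.0209). The region at the end of the shorter Icos-201, at 60995692 to 60996046, has 106 bases of 3′ UTR and 249 intronic bases past that end. Counts are given per region, so which part they came from is not known. This region had 159 and 61.4 CPM in Cre and 148, 106, 47.4, 71.3 and 173 CPM in Control, with a log2 fold change of −0.03 ± 0.72 (edgeR adjusted p = 0.994). Its share of Icos counts was 33.4% and 17.5% in Cre and 7.43% to 23.8% in Control (exact permutation p = 0.286, two-sided; 0.667 adjusted over 3 receptors). Of the 13 tested regions of the 10 receptors, 0 passed edgeR, where 0.00847% of all tested regions did, lower in Cre. At an unadjusted p under 0.05, 2 were lower and 0 higher in Cre, where 9.77% and 1.18% of all tested regions were, and DESeq2 called 0 of the 13, where it called 6.43% of all tested regions as lower and 0.305% as higher. Both Cre libraries lay below every Control library for 4 of the 13, in Cd28, Icos, Tnfrsf4 and Tnfrsf9, where 9.92% of all tested regions did so, and above for 1 of the 13, in Cd27, where 4% did so.

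**Figure D2:**
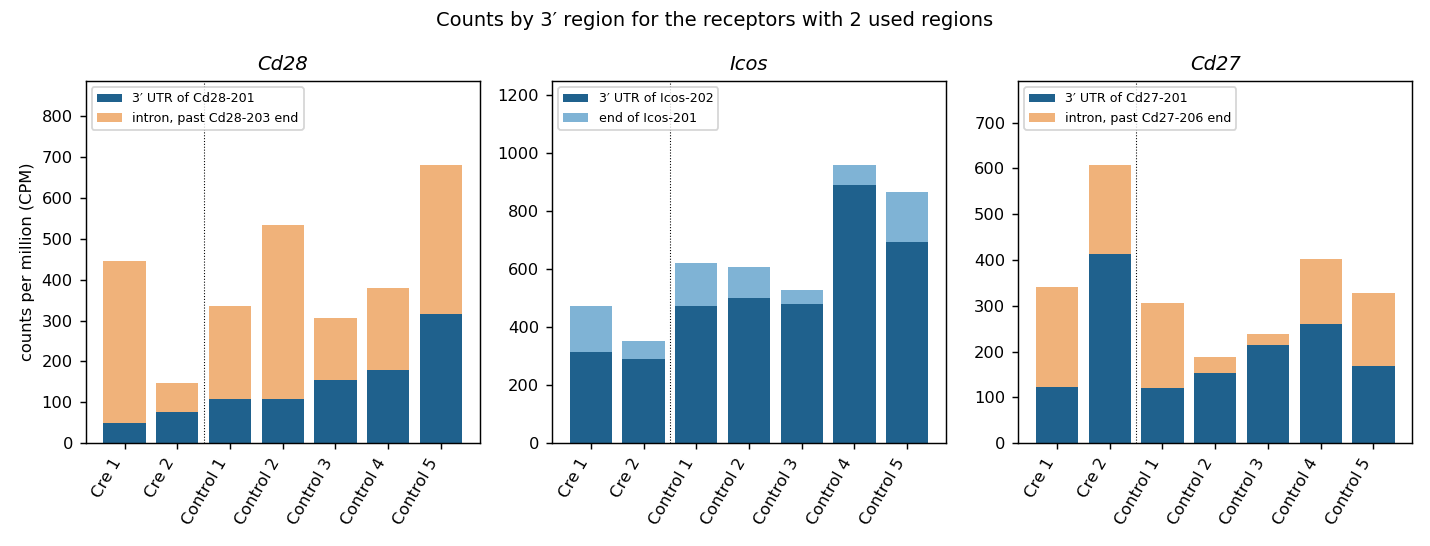
Counts of Cd28, Icos and Cd27 by 3′ region in each library, in CPM, with the 2 Cre libraries left of the dotted line. Dark blue is the region with the 3′ UTR of the longest coding transcript, which in Cd27 also has 126 intronic and 258 other exon bases. Light blue is the region with the end of a shorter coding transcript and 249 intronic bases past it. Orange is an intronic region past a retained-intron transcript. The dark blue parts of Cd28 and Icos are lower in both Cre libraries than in any Control library.

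Icos and Ctla4 mRNA carry further sequence of interest in those 3′ UTRs. Roquin, encoded by Rc3h1, is known to bind short stem-loops in the Icos 3′ UTR and to promote decay of that mRNA. The pattern TTCNNNGAA, a broad form of the core of such a loop that leaves its middle bases free, was searched on the sense strand only. It occurred 3 times in the 2606-base Icos 3′ UTR and 2 times in the 1115-base Ctla4 3′ UTR, once each in Cd28 and Tnfrsf9, and not in the other 6. Of 3628 mouse 3′ UTRs at least as long as that of Icos, 61.7% hold it within that length, and 32.3% of 9510 do at the length of Ctla4. The site with the longest run of paired bases around the core is given for each; capitals mark the core.
Icos (chr1:60999483-60999503, plus strand, 5 base pairs): caaaatTTCTGTGAAataaaa
Ctla4 (chr1:60915762-60915782, plus strand, 7 base pairs): aatattTTCCATGAAaatgca
A match is a description of letters and not a measured binding site. Rc3h1 itself had 164 and 32 counts in Cre and 113, 232, 142, 308 and 275 in Control, a log2 fold change of −1.26 ± 0.76 (edgeR adjusted p = 0.480) that was −2.55 without Cre replicate 1 and −0.57 without Cre replicate 2. Zc3h12a, which encodes another decay factor for T cell activation mRNAs, had 115 and 2 counts in Cre and 45, 24, 100, 3 and 117 in Control.

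Among the TNF receptor family members, Tnfrsf9 had the lowest level. Its counts were 5 and 24 in Cre, against 43, 73, 155, 120 and 80 in Control, or 2.59 and 16.6 CPM against 25.5, 49.2, 95.3, 69.6 and 49.1 CPM. Both Cre libraries were below every Control library, and Cre replicate 1 was below Cre replicate 2 by a factor of 6.39. The exact 95% Poisson interval for counting error was 0.841 to 6.05 CPM in Cre replicate 1, 10.6 to 24.6 CPM in Cre replicate 2 and 18.5 to 34.4 CPM in Control replicate 1, the lowest of its group, so the last 2 overlapped. The log2 fold change was −2.59 ± 1.35 (edgeR adjusted p = 0.430; interval −5.52 to 0.34), the largest in size among the 10, and DESeq2 gave an adjusted p of 0.126.

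Tnfrsf4 had 137 and 133 CPM in Cre and 215, 252, 321, 149 and 171 CPM in Control. The groups did not overlap, but Control replicate 4 lay close to the Cre libraries. Means were 135 ± 2.96 CPM in Cre and 222 ± 68.4 CPM in Control, with a log2 fold change of −0.71 ± 0.49 (edgeR adjusted p = 0.564). The adjacent gene Tnfrsf18, 9551 bases away on the same strand of chromosome 4, did not share this position. Its levels were 1447 and 1304 CPM in Cre and 1061, 1665, 1366, 1261 and 496 CPM in Control, and both Cre libraries lay within the Control range. The log2 fold change of Tnfrsf18 was 0.24 ± 0.41 (edgeR adjusted p = 0.893; interval −0.66 to 1.13). By group mean Tnfrsf18 was the highest of the 10 receptors, at 1376 ± 101 CPM in Cre and 1170 ± 435 CPM in Control. In Control replicate 5, however, Icos at 865 CPM and Cd28 at 682 CPM were above it. Tnfrsf9 was the lowest by group mean, at 9.57 ± 9.87 CPM in Cre and 57.7 ± 26.2 CPM in Control.

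Cd27, which is already present on resting T cells, had 341 and 608 CPM in Cre and 305, 188, 237, 401 and 328 CPM in Control. Cre replicate 2 was above every Control library and Cre replicate 1 within their range. Its log2 fold change was 0.70 ± 0.42 (edgeR adjusted p = 0.472; interval −0.21 to 1.60). The estimate was 1.07 without Cre replicate 1 and 0.27 without Cre replicate 2. Its counts also came from 2 regions, on the minus strand of chromosome 6. The end of 1 transcript in or next to each region reads as follows.
Cd27-201 (coding, chr6:125232622-125232651, minus strand): actataAATAAAttcatttgtctacttcta
Cd27-206 (retained intron, chr6:125236108-125236137, minus strand): aggatgaacaacatagcaagaccctgtctc
The end of Cd27-201 holds a polyadenylation signal and that of Cd27-206 does not. The region of Cd27-201 also has, within it or right before it, the ends of coding Cd27-202 and Cd27-203 and of retained-intron Cd27-204 and Cd27-205. None of these further ends holds a signal in its last 30 bases. The wholly intronic region past Cd27-206, at 125235859 to 125236107, held 64.3% and 32.0% of Cd27 counts in Cre and 60.5%, 18.6%, 10.1%, 35.4% and 48.5% in Control (exact permutation p = 0.476, two-sided; 0.667 adjusted over 3 receptors). In CPM the intronic region was above every Control library in both Cre libraries, at 220 and 195 CPM in Cre and 24.0 to 184 CPM in Control, with a log2 fold change of 0.86 ± 0.74 (edgeR adjusted p = 0.649). The region at 125232373 to 125233693, with 688 bases of the 3′ UTR, had 122 and 414 CPM in Cre and 120 to 259 CPM in Control, a log2 fold change of 0.51 ± 0.52 (adjusted p = 0.729).

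Cd40lg had 44.6 and 35.9 CPM in Cre and 35.0, 100, 77.5, 142 and 71.3 CPM in Control. Both Cre libraries were low, and Control replicate 1 was lower still. The log2 fold change was −1.07 ± 0.87 (edgeR adjusted p = 0.665). Cd40lg lies on the X chromosome, and Xist, expressed from an inactive X, had 1 and 86 counts in Cre and 340, 16, 76, 266 and 476 in Control; its part in the Cd40lg values was not tested.

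Cd2 had 132 and 33.1 CPM in Cre and 130, 102, 399, 96.3 and 147 CPM in Control. Cre replicate 2 was below every Control library and Cre replicate 1 among them, while Control replicate 3 stood far above the rest. The log2 fold change was −1.05 ± 0.77 (edgeR adjusted p = 0.596) and −0.35 without Cre replicate 2. Cd5 had 285 and 188 CPM in Cre and 154, 302, 322, 119 and 135 CPM in Control, with both Cre libraries inside a wide Control range. Its log2 fold change was 0.21 ± 0.52 (edgeR adjusted p = 0.931), and −0.12 without Cre replicate 1.

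**Figure D3:**
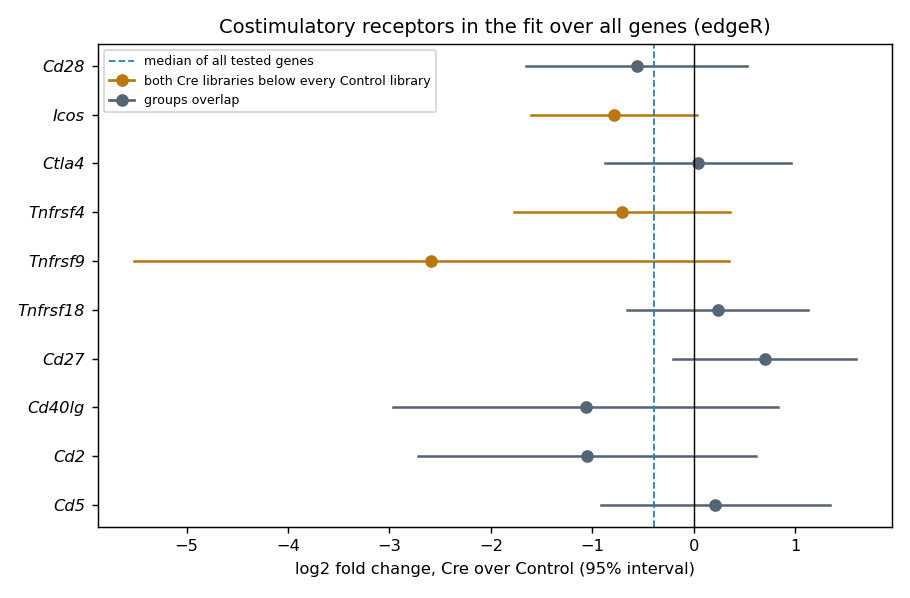
Log2 fold change of each receptor, Cre over Control, with its 95% interval from edgeR's fit over all genes; the dashed line is the median of all 9854 tested genes, −0.39. All 10 intervals include 0, and that of Icos reaches only to 0.03.

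The authors' deposited table gives the same 10 genes folds of 0.187 (Tnfrsf9) to 1.75 (Cd27), Cre over Control. In the authors' deposited table the FDR was 0.114 for Tnfrsf9 and 0.707 to 0.984 for the other 9, so 0 of 10 were under 0.05, where 3.85% of the 18008 genes with a p-value were.

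Summed over the 10 receptors, levels were 3696 and 2999 CPM in Cre and 3121, 4081, 3977, 3883 and 3195 CPM in Control. Per CPM of the T cell markers this was 0.612 and 0.468 in Cre and 0.707, 0.741, 0.732, 0.758 and 0.536 in Control. The sum of Cre replicate 2 was the lowest of all 7 libraries and that of Cre replicate 1 was in the middle. For each receptor, other tested protein-coding genes were ranked by the root mean square difference of their centred log2 levels over the 7 libraries. Genes with Gm-number or Rik symbols and antigen receptor or immunoglobulin segments were left out. The closest fellow receptor ranked between 47 (Icos for Cd40lg) and 787 (Ctla4 for Cd27) of 8389 genes. How close the nearest of so many genes comes by chance was not tested. The closest of the ranked genes were Cyld for Ctla4, at a difference of 0.12 log2 units, Ramp3 for Tnfrsf4 at 0.12, Hnrnpm for Tnfrsf18 at 0.14, Arcn1 for Tnfrsf9 at 0.19, Slc26a2 for Icos at 0.19, Atg3 for Cd27 at 0.19 and Thap3 for Cd28 at 0.21. For Cd5, Cd2 and Cd40lg they were Tgtp1 at 0.23, Esd at 0.26 and Cdc42se1 at 0.28.

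Regulatory T cell genes were read beside these levels because that subset is rich in several of the receptors. Foxp3, its lineage factor, had 109 and 6 counts in Cre and 139, 74, 129, 255 and 54 in Control, with a log2 fold change of −1.36 ± 1.14 (edgeR adjusted p = 0.680) that was −4.22 without Cre replicate 1 and −0.44 without Cre replicate 2. Il2ra, the high-affinity interleukin-2 receptor chain, had 53 and 4 counts in Cre and 127, 112, 230, 108 and 66 in Control, below every Control library in both (edgeR adjusted p = 0.429), with a log2 fold change of −2.35 ± 1.18 that was −4.79 without Cre replicate 1 and −1.47 without Cre replicate 2. Of the 8 regulatory T cell markers 7 had lower fitted values in Cre, where 60.1% of all tested genes did, and 0 passed edgeR. At an unadjusted p under 0.05, 3 were lower, where 10.2% of all tested genes were; these were Nrp1, Gpr83 and Il10, which were at 0 in both Cre libraries and so passed the filter on low counts through Control alone. The list summed to 209 and 459 CPM in Cre and 434 to 874 CPM in Control. The part of these cells in the receptor levels was not tested.

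Genes of the wider pathway were read from 6 lists with 84 genes, of which 73 were tested. No gene of these lists passed edgeR. At an unadjusted edgeR p under 0.05, 2 were higher and 6 lower in Cre, where 1.41% and 10.2% of all tested genes were, and DESeq2 called 1 higher and 4 lower, where it called 0.355% and 6.16% of all tested genes. Of the 6, Cd226, Slamf1, Traf6 and Traf2 were at 0 in both Cre libraries and so passed the filter on low counts through Control alone. Ikbkg, with 5 and 0 counts in Cre, was under the minimum count of 10 in both and also passed through Control alone. The DESeq2 calls as lower include Cd226, Traf6 and Ikbkg. Beside the list signs and medians below, 60.1% of all tested genes had lower fitted values, with a median of −0.39. Among those at least as abundant as the lowest receptor, these were 51.9% and −0.04.

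Apart from Cd48, and Cd80 in Cre replicate 2, the ligands, made mainly by antigen-presenting cells, were scarce in the sorted cells. Tnfsf18, Cd70 and Cd40 were at 0 in all 7 libraries, and 3 of 9 ligand genes were tested. Cd80 had 11 and 183 counts in Cre and 5, 0, 7, 0 and 4 in Control, so that nearly all of its counts came from Cre replicate 2, and it did not pass the filter. Cd86, which shares its receptors, was at 0 in both Cre libraries and had 13, 27, 0, 0 and 0 counts in Control. Icosl, the ICOS ligand, had 14 and 0 counts in Cre and 12, 0, 0, 26 and 0 in Control. Cd48, the CD2 ligand in the mouse, which T cells also express, had 1 and 382 counts in Cre and 50, 320, 82, 90 and 36 in Control, with a log2 fold change of 0.82 ± 1.32 (edgeR adjusted p = 0.880) that turned to −6.91 without Cre replicate 2. Macrophage and monocyte markers (10 genes), including the presenting cell marker Lyz2 at 0 in both Cre libraries, summed to 1.04 and 4.83 CPM in Cre and to 13.9 to 47.4 CPM in Control.

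Other costimulatory and coinhibitory receptors gave 4 higher and 9 lower fitted values among 13 tested genes (median log2 fold change −0.26), where 60.1% of all tested genes were lower. Cd96, Cd226 and Tigit encode receptors that share the ligand CD155. Cd96 had 242 and 277 counts in Cre and 66, 24, 15, 37 and 23 in Control, a log2 fold change of 2.95 ± 0.88 (edgeR adjusted p = 0.367; DESeq2 adjusted p = 0.00697). Cd226, the activating partner, was at 0 in both Cre libraries and had 42, 0, 76, 163 and 192 counts in Control (edgeR adjusted p = 0.367, DESeq2 adjusted p = 0.00271). Its mean level in Control was 64.0 times a limit of 3 counts over both Cre libraries, which covers counting error only. Control replicate 2 was also at 0, and the gene passed the filter on low counts through Control alone. Tigit was at 0 in both Cre libraries and had 10, 0, 0, 46 and 11 counts in Control. Slamf1, a homotypic adhesion receptor, was at 0 in both Cre libraries and had 19, 81, 0, 36 and 9 counts in Control (edgeR adjusted p = 0.426). Tigit and Slamf1 also passed the filter through Control alone.

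Signalling genes of the CD28 family had higher fitted values in Cre for 10 of 16 (median 0.16), where 60.1% of all tested genes were lower. Grap2, the adaptor GADS that binds the CD28 tail, had 931 and 981 counts in Cre and 585, 514, 257, 668 and 563 in Control (log2 fold change 0.87 ± 0.41; edgeR adjusted p = 0.429). Akt1, a kinase downstream of phosphoinositide 3-kinase, had 364 and 563 counts in Cre and 172, 177, 247, 304 and 324 in Control (0.95 ± 0.47; adjusted p = 0.429; 0.39 without Cre replicate 2). Pik3ca, a catalytic subunit of that kinase, had 248 and 185 counts in Cre and 39, 113, 144, 31 and 130 in Control, and Pik3r1, the regulatory subunit that binds the phosphorylated CD28 and ICOS tails, had 509 and 226 in Cre and 675, 287, 259, 420 and 305 in Control (−0.18 ± 0.51).

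Genes through which the TNF receptors signal had higher fitted values in Cre for 12 of 18 (median 0.26), where 60.1% of all tested genes were lower. The adaptors Traf6 and Traf2 were at 0 in both Cre libraries. Traf6 had 32, 85, 6, 0 and 130 counts in Control (edgeR adjusted p = 0.422, DESeq2 adjusted p = 0.0210). Traf2, which binds OX40, 4-1BB, GITR and CD27 tails, had 35, 0, 41, 7 and 16 counts in Control (edgeR adjusted p = 0.427). Mean Control levels of Traf6 and Traf2 were 36.0 and 13.5 times a limit of 3 counts over both Cre libraries, which covers counting error only. Control replicate 4 for Traf6 and Control replicate 2 for Traf2 were also at 0, so these are no lower bounds on a group difference. Both genes passed the filter on low counts through Control alone. Traf1, an adaptor induced by NF-kappaB, had 429 and 58 counts in Cre and 229, 324, 477, 203 and 617 in Control (log2 fold change −0.76 ± 0.69). Ikbkb, the kinase that releases NF-kappaB, had 372 and 553 counts in Cre and 200, 201, 211, 273 and 244 in Control, above every Control library in both (1.05 ± 0.45; edgeR adjusted p = 0.427; 0.53 without Cre replicate 2). Ikbkg, the regulatory subunit of the same kinase complex, lay the other way, with 5 and 0 counts in Cre and 64, 27, 40, 24 and 138 in Control (edgeR adjusted p = 0.427, DESeq2 adjusted p = 0.0319). Like Traf6 and Traf2, Ikbkg passed the filter on low counts through Control alone.

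In the list for CD2 and CD5, fitted values were higher in Cre for 7 of 12 tested genes (median 0.28), where 60.1% of all tested genes were lower. Pstpip1, which binds the CD2 tail, had 1 and 29 counts in Cre and 97, 271, 119, 240 and 221 in Control, below every Control library in both (log2 fold change −3.53 ± 1.24; edgeR adjusted p = 0.397; DESeq2 adjusted p = 0.0193), and gave −7.58 without Cre replicate 2. Cd2bp2, also named for CD2 binding, had 174 and 107 counts in Cre and 248, 232, 313, 237 and 214 in Control (−0.89 ± 0.54; adjusted p = 0.486). Ubash3b, a phosphatase that restrains antigen receptor signals, had 151 and 351 counts in Cre and 90, 96, 186, 78 and 100 in Control (1.24 ± 0.69; adjusted p = 0.444), and its estimate was 1.86 without Cre replicate 1 and 0.26 without Cre replicate 2. In the list for control of ICOS and CTLA-4, 8 of 11 had lower fitted values (median −0.31), where 60.1% of all tested genes did. Its member Ap2m1, the clathrin adaptor subunit that binds the CTLA-4 tail for uptake, had 24 and 9 counts in Cre and 81, 80, 65, 206 and 40 in Control (−2.60 ± 1.31; adjusted p = 0.429). Ap1m1, a subunit of the adaptor for sorting at the Golgi, had 49 and 30 counts in Cre and 130, 61, 4, 62 and 271 in Control (−1.46 ± 1.37; adjusted p = 0.723; −0.79 without Control replicate 5).

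**Figure D4:**
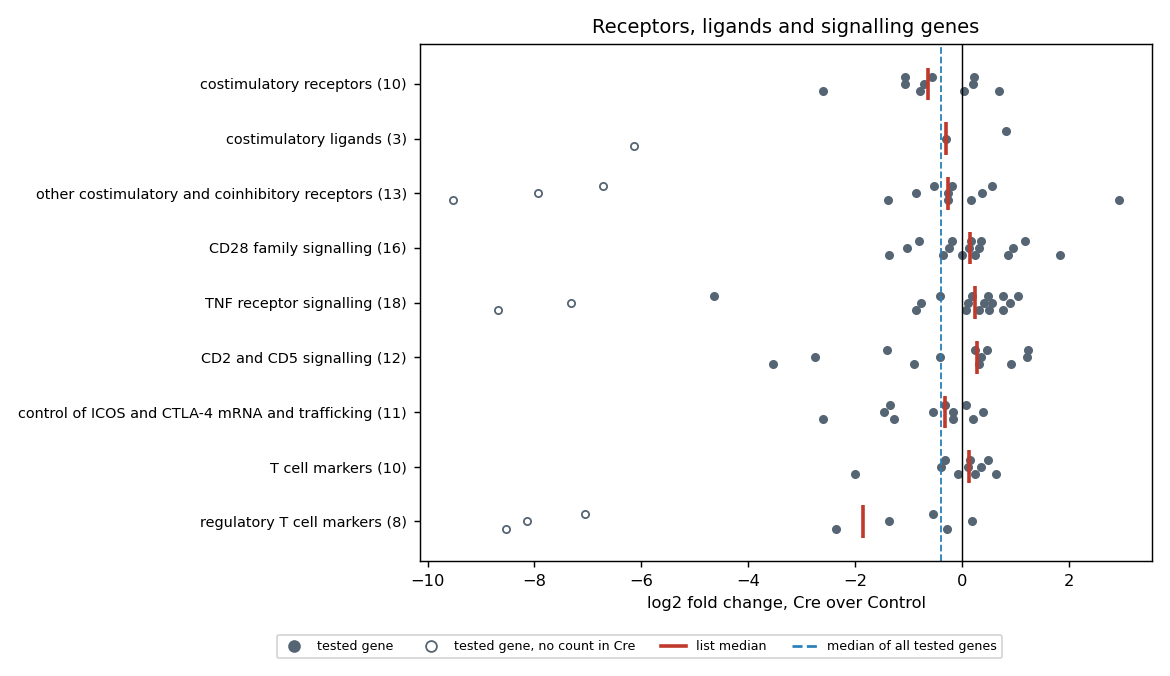
Log2 fold change, Cre over Control, of every tested gene in the receptor, pathway and marker lists, with the number tested in brackets; filled points are genes with a count in Cre, open points genes with none, whose position depends on the fit and is no measured size. Red bars are list medians, and the dashed line is the median of all tested genes, −0.39.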

How the data were processed

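CD4 T cell RNA from 2 Cre and 5 Control libraries was grouped by title. Nothing in the labels pairs libraries across groups. The authors' counts are raw whole numbers per 3′ region, per the file headers, for 116000 regions. Alignment was with HISAT2 2.1.0 to mm10, after FastQC 0.11.8, per the submitters' processing notes; for the counting tool and its strand setting, no statement was found in the labels (not given in the sources used here). No counted region of another gene overlapped those of the 10 receptors on either strand. The authors' deposited table holds DESeq2 p-values and FDR, a linear fold ratio and a log2 fold change, per the file headers; its GC content column, in percent per gene, was made by the authors and not used. Counts were summed per gene and fitted with edgeR 4.0.16 in R 4.3.3 (quasi-likelihood, TMM, robust dispersion, group as the only term, minimum count 10 and minimum total 15), with Benjamini-Hochberg adjustment over all 9854 tested genes and a threshold of 0.05. Standard errors come from the F statistic. CPM use library totals, and a count of 0 was taken to allow up to 3 counts. Such limits and Poisson intervals cover counting error only, since PCR reads are not independent molecules. Libraries are called biological replicates in the series design, and no pair agreed within sampling noise.

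Regions were placed on GENCODE M21, where 99.42% of shared genes had the same position. Named genes were the 10 receptors, up to 3 of smallest p per pathway list, some genes fixed by name and the gene nearest to each receptor over the 7 libraries (prior count 2); Zc3h12a, Tigit, Ikbkg, Xist and marker genes were named after their values were seen. The members and lists were chosen with earlier results of these data known. Alternatives were other scalings and filters, DESeq2 1.42.0, limma 3.58.1 voom with and without library weights, a replicate block, each library left out, and the region of most counts alone. The fit by region was chosen after seeing the data. The edgeR fit was tested on 3 simulated data sets, each with 200 changed genes drawn from all tested genes. At an adjusted p under 0.05 it recovered 0% of genes set 2 log2 units lower and 11.6% of those set 4 lower. For genes set 2 and 4 log2 units higher it recovered 9.42% and 41.1%, and 5.38% of calls were false.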

Additional observations from a re-analysis of the deposited data

Results flagged for a closer look

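Cd2 in Control was marked because 1 library stood apart. Control replicate 3 had 399 CPM and the other 4 Control libraries 96.3 to 147 CPM, so that the gap to the nearest of them was 0.833 of the whole Control range, above the critical value of 0.71 for 5 samples. In 13 such groups examined, 1 was marked, and chance marks about 1 in 20. The Cre libraries, at 132 and 33.1 CPM, were too few for the same check. Without Control replicate 3 the log2 fold change of Cd2 was −0.47, against −1.05 with it, and it did not pass edgeR either way (adjusted p = 0.909 and 0.596).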

How the results depend on the processing

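With 2 Cre libraries, few differences could pass even where large, and a p above the threshold does not show equal levels. In simulated data the edgeR fit recovered 0% of genes set 2 log2 units lower and 11.6% of those set 4 lower. None of the 10 receptors passed in any of 160 alternative fits (lowest adjusted p 0.126, Tnfrsf9 by DESeq2), and 153 kept their sign; Icos ranged from −1.03 to −0.54, Tnfrsf4 from −0.83 to −0.51 and Tnfrsf9 from −4.38 to −1.77. Fits without 1 Cre library assume that the lone one varies like the Control libraries. Genes called higher in Cre numbered 0, but 15 with no filter on low counts, 35 by DESeq2, 3 by voom and 0 to 17 with 1 library left out (17 without Cre replicate 1). Genes called lower numbered 1, but 28 with no filter, 607 by DESeq2, 0 by voom with or without library weights, and 1 to 202 with 1 library left out (202 without Cre replicate 1). With the replicate number as a block, 5 genes were lower and 0 receptors were called. Deviations of same-numbered libraries from their group means correlated at 0.00302 and 0.00202. The deviations of the 2 Cre libraries mirror each other, so these correlations cannot exclude pairing. The summed CPM difference was −304, and −652 to 44.6 with 1 library left out.

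Signs turned as follows, on the log2 scale, and the cause was not tested. With 1 library left out, always a Cre library at both ends, Cd28 ranged from −1.59 to 0.058, Ctla4 from −0.60 to 0.52 and Cd5 from −0.12 to 0.52. In the same fits Cd48 ranged from −6.91 to 1.85, Traf1 from −2.48 to 0.029 and Pik3r1 from −0.61 to 0.19. By region, the intronic Cd28 region ranged from −1.96 to 0.54 and the shorter Icos end from −0.86 to 0.53. The Cd27 region with 3′ UTR bases ranged from −0.57 to 1.16. Ctla4, at 0.041, gave −0.067 with upper-quartile factors, −0.00077 with the block, −0.0095 by voom and −0.00040 without Control replicate 5. Cd48 gave −2.29 with the block, −2.14 by voom and −2.41 with library weights, and Pik3r1 0.15 without Control replicate 1. The shorter Icos end, at −0.028, gave 0.075 with DESeq2 size factors, 0.076 by DESeq2, 0.12 with no filter, 0.010 with a strict filter, 0.061 by voom, 0.17 without Control replicate 1 and 0.22 without Control replicate 5. The intronic share of Cd28 (7.94 points) differed by −12.1 points without Cre replicate 1 and 28.0 without Cre replicate 2, and the intronic share of Cd27, at 13.5, by −2.66 and 29.7. The share of the shorter Icos end kept its sign in the same 2 fits, at 1.97 and 17.9. The median of the receptors was −0.63 against −0.39 over all tested genes, but −0.87 against −2.40 without Cre replicate 1, −0.15 against −1.22 without Cre replicate 2, −0.54 against −1.32 with no filter, −0.62 against −0.95 with the block, −0.65 against −0.75 by voom, and −0.54 against −0.29 by DESeq2.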
